A study of Rattus norvegicus with 12 samples.

Results

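The 9 genes described here encode neuronal calcium-binding proteins: the calcium buffers parvalbumin (Pvalb), calbindin (Calb1) and calretinin (Calb2), and the neuronal calcium sensors hippocalcin (Hpca), Hpcal1, Hpcal4, neurocalcin delta (Ncald), Ncs1 and visinin-like protein (Vsnl1). They were chosen by name, with earlier results of these data known, among 15154 named genes on an Agilent rat array of 30367 non-control probes. They were followed in primary cultures of hippocampal neurons from Wistar embryos, which the labels give as E18. Cultures were deprived of oxygen and glucose (OGD) for 2 h in a saline buffer that held sucrose in place of glucose, inside an anaerobic chamber, whereas the control cultures spent the same time in buffer with glucose under air and CO2. Both were then returned to conditioned medium, and their total RNA was taken 7 h or 24 h later. The 4 groups are thus control and OGD at each recovery time, each with 3 biological replicates from independent cultures and 1 array for each sample. The authors do not state whether the control and OGD samples of 1 replicate number came from the same culture preparation. The cultures also hold glia, and in bulk RNA of this kind fewer cells of a type and less RNA per cell cannot be told apart.

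All 9 proteins bind calcium through EF-hand motifs, loops of acidic residues held between a pair of helices. The buffers soak up calcium and shape how long and how far a calcium signal spreads; in the hippocampus parvalbumin and calretinin mark separate classes of inhibitory interneurons, and calbindin is found in granule cells, in part of the pyramidal cells and in some interneurons. The sensors instead change shape when they bind calcium, most of them exposing a fatty acid tail that takes the protein to a membrane, where it acts on ion channels, kinases, cyclases or receptor trafficking. Calcium overload is a hallmark of ischemic injury in neurons, which is the setting in which a change of these genes was looked for.

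The promoters of 3 sensor genes are shown because their messages gave the contrasting patterns described below: Hpcal4 and Hpca were lower after OGD, and Ncs1 was higher at 7 h and not at 24 h. The sequences are those of RefSeq on assembly GRCr8, from 250 bases before the annotated start to 50 bases from it on, read along the gene. Capitals mark matches on either strand to the GC box GGGCGG, the TATA box TATAAA, the cAMP response element TGACGTCA, its half-site TGACG, which lies within the full element, or the E-box CACGTG.
Hpcal4 (chr5:140739658-140739957, plus strand): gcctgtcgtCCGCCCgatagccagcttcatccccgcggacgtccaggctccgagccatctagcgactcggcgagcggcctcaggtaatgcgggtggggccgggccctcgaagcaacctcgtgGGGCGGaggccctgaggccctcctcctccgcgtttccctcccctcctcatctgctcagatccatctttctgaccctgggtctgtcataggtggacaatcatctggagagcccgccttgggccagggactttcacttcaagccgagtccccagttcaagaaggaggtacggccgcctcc
Hpca (chr5:146748309-146748608, minus strand): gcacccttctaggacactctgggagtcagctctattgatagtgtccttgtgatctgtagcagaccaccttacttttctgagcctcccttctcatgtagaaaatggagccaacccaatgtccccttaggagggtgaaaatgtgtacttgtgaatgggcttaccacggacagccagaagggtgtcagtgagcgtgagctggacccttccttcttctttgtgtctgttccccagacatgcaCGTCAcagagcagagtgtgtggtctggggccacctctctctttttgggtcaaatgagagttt
Ncs1 (chr3:34920699-34920998, plus strand): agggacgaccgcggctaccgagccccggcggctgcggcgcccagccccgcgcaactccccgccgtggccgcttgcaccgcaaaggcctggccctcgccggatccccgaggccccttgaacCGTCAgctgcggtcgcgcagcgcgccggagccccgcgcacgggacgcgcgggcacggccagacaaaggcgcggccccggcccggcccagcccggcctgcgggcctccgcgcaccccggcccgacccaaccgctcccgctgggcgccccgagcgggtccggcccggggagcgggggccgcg

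The Hpcal4 promoter held 2 GC boxes, the Hpca promoter 1 half-site and the Ncs1 promoter 1 half-site. Of all 33469 promoters of this length, 33.1% held a GC box and 21.2% a half-site. The other letters searched, the TATA box (in 14.2% of all promoters), the full cAMP response element (1.83%) and the E-box (6.42%), were not in these 3 windows. The share of G and C was 65% for Hpcal4, 50.7% for Hpca and 82.3% for Ncs1, against a median of 51.7% over all promoters. Promoters of 3 further genes of the group were at hand, Pvalb with 1 GC box and 1 half-site, Hpcal1 with 3 GC boxes and Vsnl1 with 1 GC box, so that 6 of the 9 genes were matched.

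Each gene of the group has 1 probe, whose signal was well above background on all 12 arrays and saturated on none. Values are given as a relative level, the log2 of the processed fluorescence intensity of the probe minus the median of all non-control probes of the same array, so that 1 unit is a factor of 2 and 0 is the middle of that array. Probes differ in how brightly they report their message, so a level is compared between arrays and never between genes. Groups were compared with limma in 1 model of the 12 arrays, and a gene is said to have passed, or to have risen or fallen, at an unadjusted limma p under 0.05. After Benjamini-Hochberg adjustment over all 30367 probes, 0 probes passed at 7 h (smallest adjusted p 0.117) or at 24 h (0.209), while 3590 and 4160 probes had an unadjusted p under 0.05.

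The median intensity over probes was between 176 and 294 units on 10 of the arrays, 121 on OGD 7 h replicate 1 and 75.2 on OGD 24 h replicate 1, which stood apart from the rest. The control and OGD arrays of 1 time and replicate number share a slide, and 3 OGD arrays (7 h replicates 1 and 2, 24 h replicate 1) were scanned apart from the control array of their slide. Of the 15 general neuron markers all were well above background on all 6 control arrays, as were 9 of 9 astrocyte, 10 of 10 oligodendrocyte lineage and 7 of 10 microglia markers with a probe. Scaling the arrays to the 1 usable spike-in probe lowered all OGD values relative to control by 0.80 at 7 h and 1.03 at 24 h on the log2 scale, and changes below are relative to the middle of each array. The split of all called probes also moved with the scaling. At 7 h it was 2135 lower and 1455 higher, against 1543 and 1648 when centred on the 75th percentile, 277 and 76 when scaled to the spike-in, and 2163 and 3682 after normexp background correction. At 24 h it was 1880 lower and 2280 higher, against 518 and 20 with the spike-in and 1028 and 449 after normexp.

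Most of the sensors were lower after OGD, and no buffer passed. At 7 h, Hpcal1, Hpcal4 and Ncald fell, 3 of 9 genes beside 7.03% of all probes called lower, and Ncs1 rose, 1 of 9 beside 4.79% called higher. At 24 h, Hpca, Hpcal1, Hpcal4, Ncald and Vsnl1 fell, 5 of 9 beside 6.19% of all probes, and 0 of 9 rose beside 7.51%. The median log2 fold change of the 9 genes was -0.50 at 7 h and -0.80 at 24 h, beside -0.11 and -0.03 for all named genes. The fitted adjusted p of the 9 genes ran from 0.329 to 0.844 at 7 h and from 0.269 to 0.825 at 24 h. Both counts depended on single arrays: without OGD 7 h replicate 1 no member passed at 7 h, and without OGD 24 h replicate 1 only Hpcal4 passed at 24 h. Without control 24 h replicate 1 the count at 24 h was likewise 1. The number passing at 7 h was 2 without control 7 h replicate 1, 1 without control 7 h replicate 2 and 2 without OGD 7 h replicate 2; at 24 h it was 3 without control 7 h replicate 2 and 2 without control 24 h replicate 2.

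**Figure D1:**
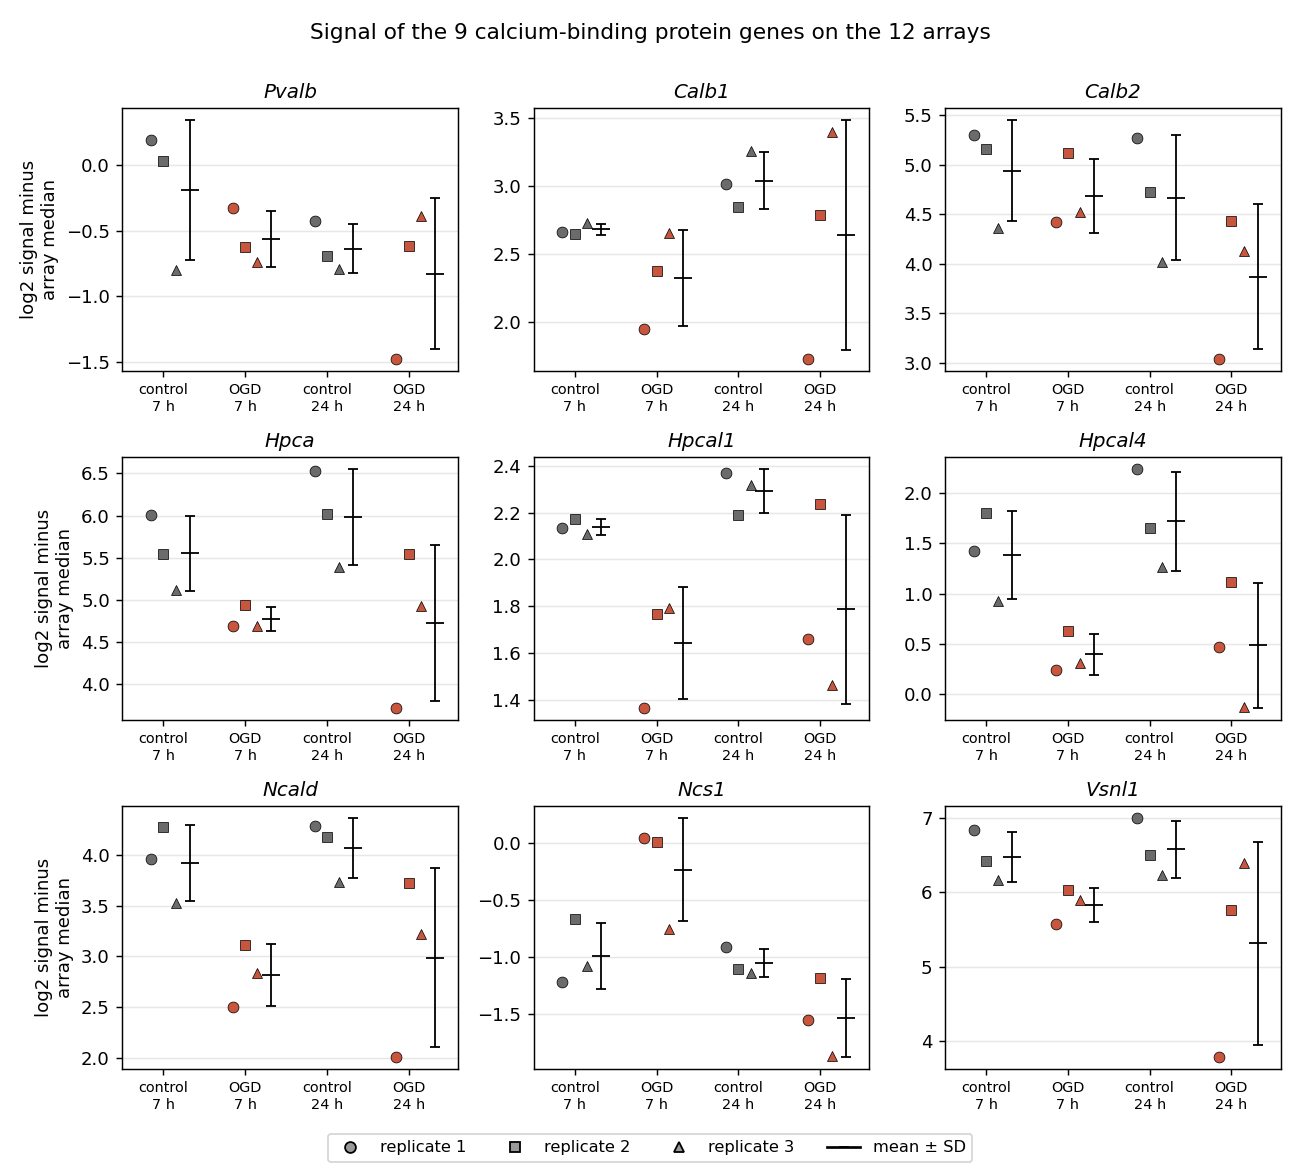
Relative level (log2 intensity minus the array median, vertical axis, scaled separately for each gene) of the 9 genes on the 12 arrays, grouped by condition and recovery time, grey for control and red for OGD. Symbols are replicate arrays and the bars are the mean ± SD of 3 arrays. Hpcal4 and Ncald lay below their control arrays at both times, Ncs1 was highest in the OGD group at 7 h, and OGD 24 h replicate 1 gave the lowest point for 6 of the 9 genes.

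Among the buffers, parvalbumin, the slow calcium buffer of fast-spiking interneurons, had relative levels of 0.19, 0.03 and -0.80 in the control and -0.33, -0.63 and -0.74 in the OGD cultures at 7 h. At 24 h they were -0.43, -0.69 and -0.79 in the control and -1.48, -0.62 and -0.39 in the OGD cultures. The groups overlapped at both times. The log2 fold change was -0.37 at 7 h (95% limma interval -1.09 to 0.34) and -0.19 at 24 h (-0.91 to 0.53). The value at 24 h was 0.14 without OGD 24 h replicate 1 and 0.071 after normexp background correction, so its direction was not settled.

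Calbindin, which buffers calcium in dentate granule cells and in some pyramidal cells, stood at 2.67, 2.65 and 2.73 in the control and 1.95, 2.38 and 2.65 in the OGD cultures at 7 h. At 24 h the levels were 3.02, 2.84 and 3.26 in the control and 1.73, 2.79 and 3.40 in the OGD cultures, which spanned a far wider range than the controls. The groups overlapped at both times, at 7 h only in that the highest OGD culture lay level with the lowest control. The log2 fold change was -0.36 at 7 h (95% limma interval -1.15 to 0.44) and -0.40 at 24 h (-1.19 to 0.39), and the latter was 0.054 without OGD 24 h replicate 1.

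Calretinin, the buffer of a further interneuron class and of young granule cells, had levels of 5.30, 5.16 and 4.36 in the control and 4.43, 5.12 and 4.52 in the OGD cultures at 7 h. The levels at 24 h were 5.27, 4.72 and 4.02 in the control and 3.04, 4.43 and 4.13 in the OGD cultures. The control cultures spread about as widely as the OGD cultures, and the groups overlapped at both times. The log2 fold change was -0.25 at 7 h (95% limma interval -1.21 to 0.70) and -0.80 at 24 h (-1.75 to 0.15), and the latter was -0.39 without OGD 24 h replicate 1.

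Of the sensors, Hpcal4 moved most steadily. This visinin-like sensor, found mainly in brain, had levels of 1.42, 1.80 and 0.93 in the control and 0.24, 0.63 and 0.31 in the OGD cultures at 7 h. After 24 h they were 2.24, 1.66 and 1.26 in the control and 0.47, 1.12 and -0.13 in the OGD cultures. Every OGD culture lay below every control culture of its time. Hpcal4 fell by 0.99 at 7 h (SE 0.36, limma adjusted p = 0.333) and by 1.23 at 24 h (SE 0.36, adjusted p = 0.269), which left 50.4% and 42.6% of the control signal. At 24 h it passed with each of the 12 arrays left out in turn, with fold changes between -1.55 and -0.92, but not by the methods' t-test. At 7 h it did not pass without control replicate 2 (-0.78) or without OGD replicate 1 (-0.91). Nor did it pass at 7 h when scaled to the spike-in probe (-1.79) or without the 3 OGD arrays scanned apart (-1.08).

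Ncald, a sensor that binds clathrin and the cytoskeleton and takes part in vesicle traffic, had levels of 3.96, 4.28 and 3.53 in the control and 2.50, 3.11 and 2.84 in the OGD cultures at 7 h. In the cultures of 24 h they were 4.29, 4.18 and 3.74 in the control and 2.01, 3.73 and 3.23 in the OGD cultures. The groups did not overlap at either time, although at 24 h the highest OGD culture (3.73) lay next to the lowest control (3.74). Ncald fell by 1.1 at 7 h (SE 0.40, limma adjusted p = 0.332) and by 1.08 at 24 h (SE 0.40, adjusted p = 0.311). It did not pass at 24 h without OGD 24 h replicate 1 (-0.59), control 24 h replicate 1 (-0.97) or control 24 h replicate 2 (-1.02). At 7 h the call was lost without control replicate 2 (-0.93) or OGD replicate 1 (-0.95).

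Hippocalcin, abundant in hippocampal pyramidal cells and known for gating the slow afterhyperpolarization, had levels of 6.0, 5.54 and 5.11 in the control and 4.69, 4.94 and 4.69 in the OGD cultures at 7 h. The 24 h levels were 6.53, 6.01 and 5.39 in the control and 3.72, 5.54 and 4.93 in the OGD cultures. The groups were apart at 7 h and overlapped at 24 h, where the second OGD culture lay above the third control. The log2 fold change was -0.78 at 7 h (SE 0.44, limma adjusted p = 0.504), and Hpca fell by 1.25 at 24 h (SE 0.44, adjusted p = 0.298). It did not pass at 24 h without OGD 24 h replicate 1 (-0.75) or control 24 h replicate 1 (-0.97). At 7 h, Hpca and Vsnl1 passed in the model that left out OGD 24 h replicate 1, which gave the same fold changes.

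Vsnl1, a sensor of cortical and hippocampal neurons whose protein is measured in spinal fluid as a marker of neuronal injury, had levels of 6.84, 6.42 and 6.16 in the control and 5.58, 6.03 and 5.89 in the OGD cultures at 7 h. They were 6.99, 6.50 and 6.23 in the control and 3.79, 5.76 and 6.39 in the OGD cultures at 24 h. The groups were apart at 7 h and overlapped at 24 h, where the OGD cultures spread over more of the scale than for any other gene of the group. The log2 fold change was -0.64 at 7 h (SE 0.54, limma adjusted p = 0.654), and Vsnl1 fell by 1.26 at 24 h (SE 0.54, adjusted p = 0.344). It did not pass without OGD 24 h replicate 1 (-0.50), control 24 h replicate 1 (-1.05) or control 24 h replicate 2 (-1.30). With the slide as a fixed block (-1.26) it did not pass, while with the slide as a random block it did. The call was also lost, at the same fold change, without control 7 h replicate 2 or OGD 7 h replicate 3.

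Hpcal1, a visinin-like sensor best known from cerebellar Purkinje cells, had levels of 2.14, 2.18 and 2.11 in the control and 1.37, 1.77 and 1.79 in the OGD cultures at 7 h. Later, at 24 h, they were 2.37, 2.19 and 2.32 in the control and 1.66, 2.24 and 1.46 in the OGD cultures. The control cultures lay close together at both times, the groups were apart at 7 h, and at 24 h the second OGD culture lay within the control range. Hpcal1 fell by 0.50 at 7 h (SE 0.22, limma adjusted p = 0.413) and by 0.51 at 24 h (SE 0.22, adjusted p = 0.349), the smallest falls among the members that passed. With the slide as a fixed block it passed at neither time, and with the slide as a random block it passed at both. It also passed at neither time when centred on the 75th percentile (-0.38 and -0.39) or after quantile normalization (-0.41 at both times). With the authors' values (-0.47 and -0.50) it likewise passed at neither. The call was lost in 8 of the 12 fits that left out 1 array at 7 h and in 9 at 24 h, and the value nearest to 0 was -0.36 at 7 h (without OGD replicate 1) and -0.34 at 24 h (without OGD replicate 3). The fits that kept the call at 7 h left out OGD 7 h replicate 3 or an OGD array of 24 h, and those that kept it at 24 h left out OGD 7 h replicate 1 or 3 or OGD 24 h replicate 2.

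Ncs1 went the other way at 7 h. This sensor activates a phosphatidylinositol kinase of the Golgi and modulates calcium channels and transmitter release. It had levels of -1.22, -0.66 and -1.08 in the control and 0.05, 0.01 and -0.75 in the OGD cultures at 7 h. By 24 h they were -0.91, -1.10 and -1.14 in the control and -1.55, -1.18 and -1.87 in the OGD cultures. At 7 h a pair of OGD cultures lay above all controls and the third within their range, while at 24 h all OGD cultures lay below all controls. Ncs1 rose by 0.75 at 7 h (SE 0.27, limma adjusted p = 0.329), which is 1.69-fold, but its value was -0.043 when the arrays were scaled to the spike-in probe. At 24 h the log2 fold change was -0.48 (95% interval -1.07 to 0.11, limma adjusted p = 0.438), and after normexp background correction it was -0.058. It passed in 1 fit, the one without OGD 24 h replicate 2 (-0.66). The rise did not pass without OGD 7 h replicate 1 (0.62), OGD 7 h replicate 2 (0.63) or control 7 h replicate 1 (0.64), and it was 0.23, not passing, without the 3 OGD arrays scanned apart.

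Whether the response differed between the recovery times was tested as the 24 h change minus the 7 h change. Ncs1 was the only gene of the group called, 1 of 9 lower beside 1.4% of all probes and 0 of 9 higher beside 2.18%. Its difference was -1.24 (SE 0.38, 95% interval -2.07 to -0.40, limma adjusted p = 1.00). It stayed between -1.50 and -1.07 and passed with each array left out, but it did not pass without the 3 OGD arrays scanned apart (-0.71), after normexp background correction (-0.73) or when scaled to the spike-in probe (-1.46). The intervals were wide: for Hpca the difference was -0.47 (95% interval -1.85 to 0.90) and for Vsnl1 -0.62 (-2.30 to 1.06), so a change of either size between the times was not detectable with 3 cultures in a group.

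**Figure D2:**
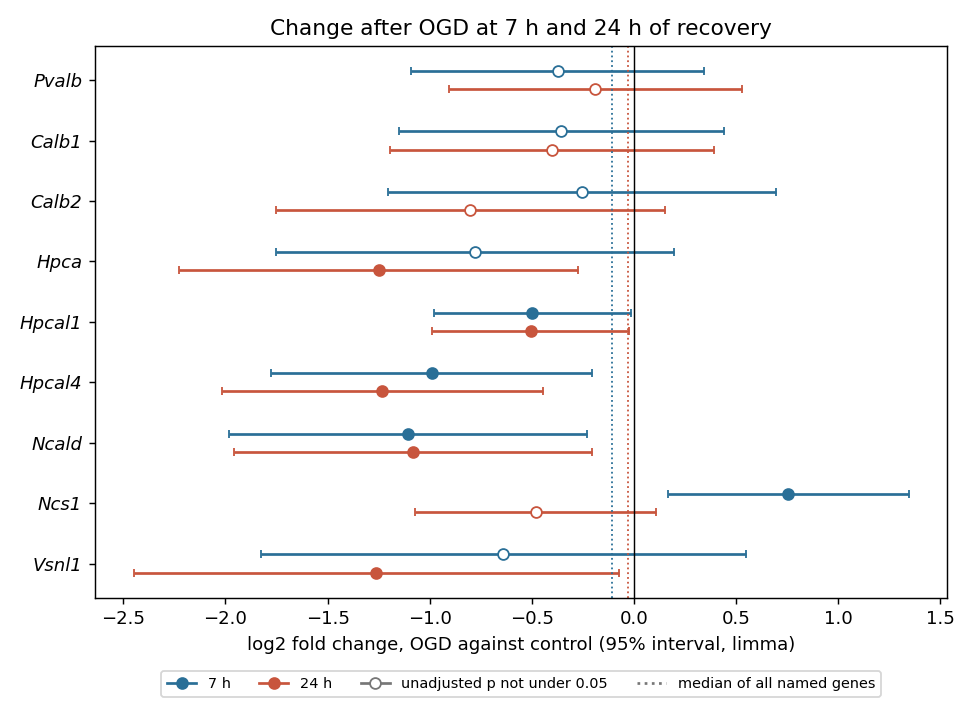
Log2 fold change of OGD against control (horizontal axis) for each of the 9 genes, blue at 7 h and red at 24 h, with 95% limma intervals; open points did not pass at an unadjusted p under 0.05 and dotted lines mark the median of all named genes. Points lie left of 0 for every gene at both times except Ncs1 at 7 h (0.75), and Hpcal4 and Ncald lie near or beyond -1 at both.

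Between control cultures at 24 h and 7 h no gene of the group passed: 0 of 9 were lower beside 9.07% of all probes and 0 of 9 higher beside 5.65%, with differences from -0.45 for Pvalb to 0.43 for Hpca. The limma adjusted p of these genes was between 0.530 and 0.948, while 64 probes passed the adjustment. Ordered by group mean, the control cultures at 24 h were highest for Calb1, Hpca, Hpcal1, Hpcal4, Ncald and Vsnl1, the control cultures at 7 h for Pvalb and Calb2, and the OGD cultures at 7 h for Ncs1. The lowest mean was that of the OGD cultures at 24 h for Pvalb, Calb2, Hpca, Ncs1 and Vsnl1, and at 7 h for the other 4 genes. Most neighbours in these orders overlapped in their single values. Those that did not were the controls at 24 h and 7 h for Calb1 and Hpcal1, the control and OGD cultures at 7 h for Hpca and Vsnl1, and the control and OGD cultures at 24 h for Ncs1.

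The slide holds 1 control and 1 OGD array, so the change can be read within each slide. After centring on the array median, the OGD array at 7 h was lower on 3 of 3 slides for Calb1, Hpca, Hpcal1, Hpcal4, Ncald and Vsnl1. For Ncs1 it was higher on 3 of 3, by 1.26, 0.67 and 0.33. Before centring, the Ncs1 intensities at 7 h were 126, 136 and 126 in the control and 125, 182 and 120 in the OGD cultures. The OGD array at 24 h was lower on 3 of 3 slides for Hpca, Hpcal4, Ncald and Ncs1. How many of all probes had 1 sign on 3 of 3 slides, or groups without overlap, was not counted. Neither is therefore read as particular to these genes. The slide of replicate 1 gave the lowest difference at 24 h for 7 of the 9 genes. On it Vsnl1 differed by -3.20, Hpca by -2.81, Ncald by -2.28 and Calb2 by -2.23. On the slides of replicates 2 and 3 the same genes differed by -0.75 and 0.16, by -0.47 and -0.47, by -0.45 and -0.51 and by -0.29 and 0.11. Hpcal4 differed by -1.76, -0.54 and -1.39, and Hpcal1 by -0.71, 0.05 and -0.86, so their values did not rest on that slide in the same way. The OGD array of replicate 1 at 24 h was also the dimmest of the 12, and the part of its low signal in these differences was not tested.

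**Figure D3:**
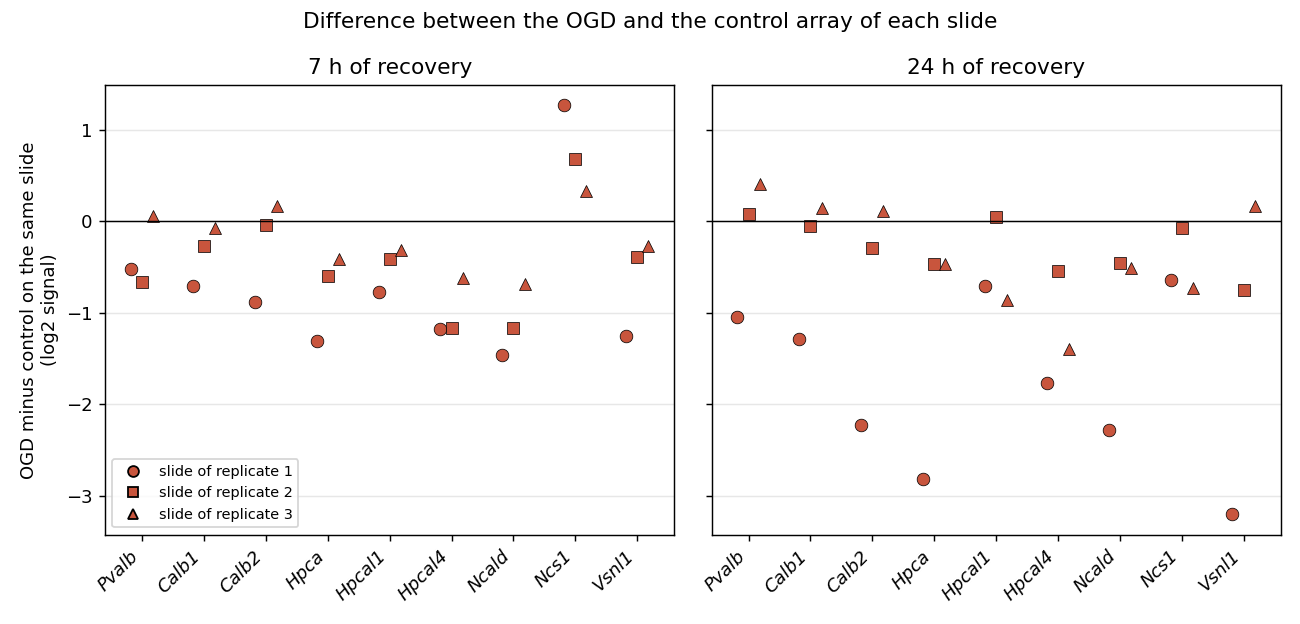
Difference in relative level (log2 intensity minus the array median) between the OGD and the control array of each slide (vertical axis) for the 9 genes. Recovery is 7 h on the left and 24 h on the right, and each symbol is 1 slide. At 24 h the slide of replicate 1 (circles) lies well below the others for Calb2, Hpca, Ncald and Vsnl1, and at 7 h all 3 slides lie above 0 for Ncs1.

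The nearest relatives on the array were read beside these genes. The 7 other members of the calcium sensor family were recoverin, guanylate cyclase activator and potassium channel interacting proteins. At 7 h 2 of them were called lower beside 7.03% of all probes and 1 higher beside 4.79% (median -0.32). At 24 h 2 were called lower beside 6.19% and none higher beside 7.51% (median -0.51). The number called at 7 h was 0 without OGD 7 h replicate 1 and 1 without control 7 h replicate 2 or 3 or OGD 7 h replicate 2, and that at 24 h was 1 without control 24 h replicate 1. Kcnip3, which also acts as a calcium-dependent repressor of transcription, fell by 0.47 at 7 h (SE 0.18) and by 0.76 at 24 h (SE 0.18). Kcnip2 fell by 1.03 at 24 h (SE 0.34). Kcnip4, a modulator of A-type potassium channels as is Kcnip2, rose by 0.99 at 7 h (SE 0.37), where the groups overlapped. At 24 h it stood at -0.70 (SE 0.37) and did not pass, the same signs as Ncs1. No gene of this list was called higher at 7 h without control 7 h replicate 2 or 3, or without OGD 7 h replicate 1 or 2. The same held without the 3 OGD arrays scanned apart and by the methods' t-test, so the Kcnip4 rise was lost in these fits. Guca1a, a retinal protein, was the other gene called lower at 7 h. Its signal was then well above background on 1 of 3 control and 0 of 3 OGD arrays, so no fold is given. The adjusted p of the genes that passed in the related-gene and marker lists ran from 0.226 to 0.422 at 7 h and from 0.252 to 0.364 at 24 h.

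Of 19 other EF-hand buffers and sensors with a probe, 2 fell at 7 h beside 7.03% of all probes. Another 2 were called higher on saturated probes beside 4.79%, and the list median was 0.03. At 24 h 7 fell beside 6.19% and 1 rose beside 7.51% (median -0.20). The number called at 7 h was 0 without control or OGD 7 h replicate 1 and 7 without OGD 24 h replicate 1, and that at 24 h was 4 without control 24 h replicate 1. Cabp7 fell at both times, with changes of -1.12 and -1.44, and so did Necab3, with -1.02 and -1.36. Cabp1, which binds calcium channels and the inositol trisphosphate receptor, fell by 1.1 at 24 h (SE 0.29), and Caln1 fell by 1.02 (SE 0.38). The brightest probes of Calm2 and Calm3, which encode calmodulin, were the ones called higher at 7 h, but both were saturated on 3 of 3 control arrays, so no fold is given. Their other probes gave -0.22 and -0.35 for Calm2 and 0.11 for Calm3, none of which passed. Calmodulin genes encode the same protein and their probes disagreed, so their direction was not settled. Among 9 partner proteins of the sensors, 1 was called higher at 7 h beside 4.79% of all probes and 1 fell at 24 h beside 6.19%. Ap2m1, a subunit of the clathrin adaptor, was the one called higher. It was saturated on all 6 arrays of that time, so no fold is given. Ppp3ca, the catalytic subunit of calcineurin, fell by 0.55 at 24 h (SE 0.24), a call lost in 10 of the 12 fits that left out 1 array. Pi4kb, the kinase that Ncs1 activates, had log2 fold changes of -0.30 and -0.23 and passed at neither time (SE 0.18).

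Markers of the neurons that carry these proteins were read beside them. Of 20 interneuron markers none passed at 7 h (median -0.20), beside 7.03% of all probes called lower and 4.79% higher. At 24 h 4 fell beside 6.19% of all probes and 1 rose beside 7.51% (median -0.78). Gad2, an enzyme of GABA synthesis, fell by 1.14 at 24 h (SE 0.39), and Gad1 by 1.14 on its brightest probe (SE 0.47), with -0.57 on its other probe, which did not pass. Lhx6, a transcription factor of Pvalb and Sst interneurons, fell by 0.98 on its brightest probe (SE 0.38) and had -0.51 on the other, which did not pass, and Sox6 rose by 0.92 (SE 0.37). Sst, the peptide of a large interneuron class, had log2 fold changes of -0.16 and -0.81 and passed at neither time (SE 0.49). The summed interneuron marker level, in units of the array median, is led by the brightest probes, of which that of Cck was saturated on 3 of 3 control arrays at both times. It lay between 679 and 946 in control and 829 and 996 in OGD cultures at 7 h, and between 676 and 1334 in control and 394 and 775 in OGD cultures at 24 h. None of the interneuron markers passed at 24 h without OGD 24 h replicate 1 or without control 24 h replicate 1, and 2 passed without control 24 h replicate 2. The number was 9 without OGD 24 h replicate 2 (8 lower) and 10 without OGD 24 h replicate 3 (9 lower). At 7 h it was 2 without OGD 7 h replicate 3, both higher, and 1 without OGD 24 h replicate 1.

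Of 15 pyramidal and granule cell markers with a probe, 5 fell at 7 h beside 7.03% of all probes and 1 rose beside 4.79% (median -0.38). At 24 h 9 fell beside 6.19% and none rose beside 7.51% (median -0.78). The vesicular glutamate transporters fell at both times, Slc17a7 with changes of -1.18 and -1.53 and Slc17a6 with -1.14 and -1.16. Neurod6 and Neurod2, transcription factors of excitatory neurons, had fallen at 24 h, with -1.58 (SE 0.60) and -1.47 (SE 0.40). Tbr1 passed at 7 h but was well above background on only 1 of the 12 arrays. The summed level is led by the brightest probes, among them those of Slc17a6 and Neurod6, so it is not a reading of the whole list. It lay between 172 and 212 in control and 95.2 and 153 in OGD cultures at 7 h. At 24 h it lay between 191 and 299 in control and 54.6 and 167 in OGD cultures. The groups did not overlap at either time, but how often sums of other genes did so was not counted. Of these markers 5 passed at 24 h without OGD 24 h replicate 1 or without control 24 h replicate 1, all lower. At 7 h 2 passed without control 7 h replicate 2 or OGD 7 h replicate 1 and 3 without control 7 h replicate 3, and without the 3 OGD arrays scanned apart 1 passed, which was higher.

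General neuron markers followed at 24 h, with 7 of 15 fallen beside 6.19% of all probes and none risen beside 7.51% (median -0.59). Syn1 fell by 1.26, Syt1 by 1.18, Eno2 by 1.06 and Nefl by 0.87. At 7 h 1 fell beside 7.03% of all probes, Eno2 by 1.1, with a median of -0.34. Uchl1 was called higher, 1 of 15 beside 4.79%. Its probe was saturated on 3 of 3 control and 2 of 3 OGD arrays, so no fold is given. Map2, the dendritic microtubule protein, had 0.26 at 7 h, which did not pass, and fell by 0.45 at 24 h (SE 0.20), and Tubb3 had -0.05 and -0.56 and did not pass. At 24 h 3 of the 15 passed without OGD 24 h replicate 1, control 24 h replicate 1 or control 24 h replicate 2, and 4 without control 7 h replicate 1 or 2 or OGD 7 h replicate 2. At 7 h 7 passed without OGD 24 h replicate 1, 5 without OGD 24 h replicate 2, and 1 without control 7 h replicate 1 or 3 or OGD 7 h replicate 1. The medians of the neuron lists at 24 h, between -0.59 and -0.78, lay beside -0.80 for the 9 calcium-binding protein genes, and the part of the number of neurons, or of one neuron class, in the falls described above was not tested.

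Markers of other cell types were read in the same way, beside 7.03% of all probes called lower and 4.79% higher at 7 h. At 24 h these shares were 6.19% and 7.51%. In lists of 9 or 10 genes a single call is near these shares and is not read as a result about the cell type. Of 9 astrocyte markers, Aldoc and Slc1a3 were called higher at 7 h on their brightest probes, which were saturated on 3 of 3 control arrays, and their other probes gave 0.03 each and did not pass. None passed at 24 h, and the medians of the list were 0.13 and -0.12. No summed astrocyte level is compared, because these saturated probes lead it. Of 10 microglia markers, Cx3cr1 rose by 1.02 at 7 h (SE 0.27) and Cd68, a lysosomal protein of phagocytes, by 0.96 at 24 h (SE 0.39), while Ptprc was well above background on 0 arrays; the summed level lay between 12.3 and 14.3 in control and 14.1 and 23.3 in OGD cultures at 7 h and between 18.9 and 23.2 and 21.7 and 31.5 at 24 h. Of 10 oligodendrocyte lineage markers, Cspg4 and Sox10 fell by 1.07 and 0.96 at 7 h and Olig2 rose by 0.48 at 24 h on 1 of its 2 probes, with summed levels of 219 to 229 in control and 115 to 256 in OGD cultures at 7 h and 260 to 358 and 298 to 489 at 24 h. Of 10 vascular and fibroblast markers, Pecam1 fell by 0.91 and Cldn5 passed at 7 h, well above background on 2 of 3 control and 0 of 3 OGD arrays and at least 1.18-fold higher in control, and Flt1 rose by 0.81 at 24 h; all 3 were dim on some arrays, and the summed level lay between 41.3 and 142 in control and 58.2 and 183 in OGD cultures at 7 h and between 35 and 138 and 127 and 232 at 24 h. Single arrays carried several of these calls. None of the oligodendrocyte markers passed at 7 h without control 7 h replicate 2 or OGD 7 h replicate 1, or at 24 h without control 7 h replicate 2, OGD 7 h replicate 2, control 24 h replicate 1 or 3 or OGD 24 h replicate 1. At 24 h no microglia marker passed without control 24 h replicate 2 or 3 or OGD 24 h replicate 3, and no vascular marker without control 24 h replicate 1 or 2. Without the 3 OGD arrays scanned apart, 2 microglia markers were called lower at 7 h and none higher, so the rise of Cx3cr1 was lost.

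**Figure D4:**
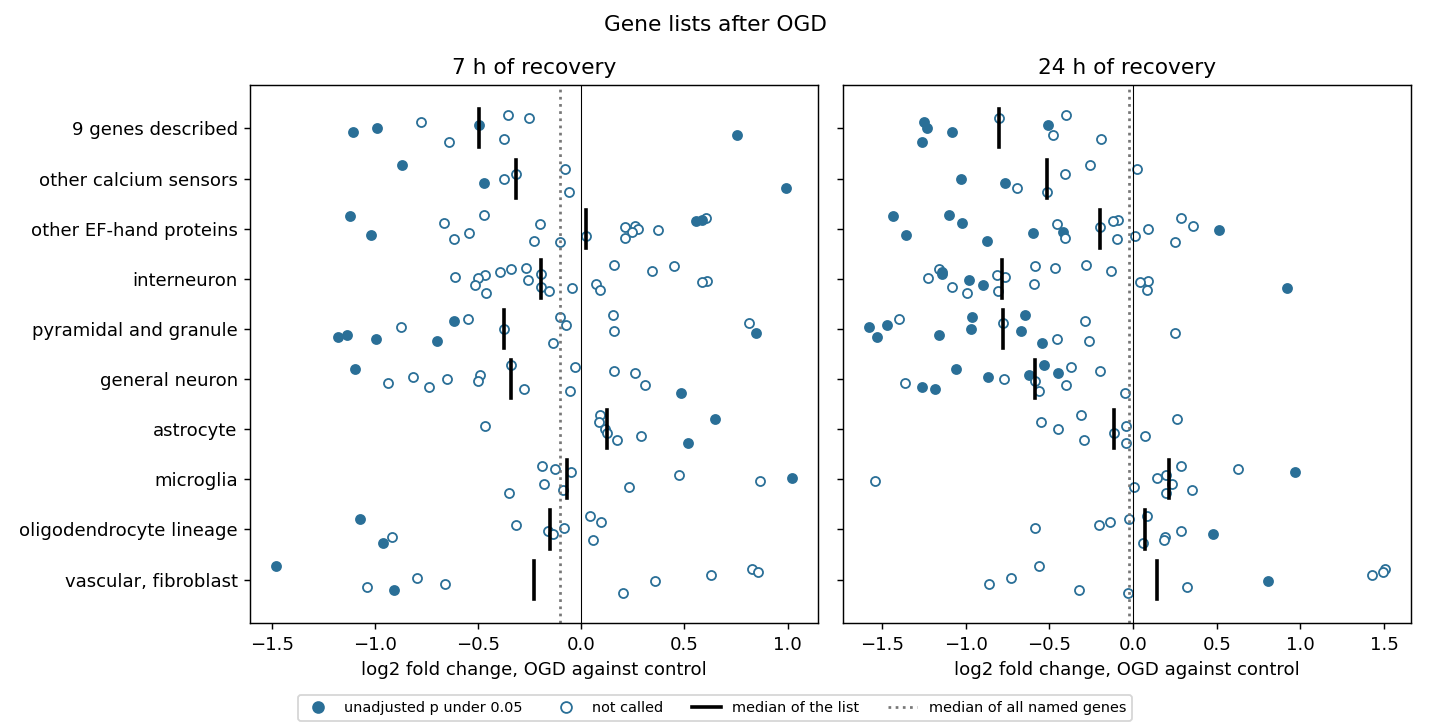
Log2 fold change of OGD against control (horizontal axis) for the 9 genes and 9 lists of related genes or cell type markers (vertical axis), at 7 h on the left and 24 h on the right. Each point is 1 gene, filled at an unadjusted p under 0.05, which at 7 h takes in the saturated probes of Calm2, Calm3, Uchl1, Aldoc and Slc1a3. Thick bars are list medians and the dotted line is the median of all named genes. At 24 h the medians of the 9 genes (-0.80), the interneuron (-0.78) and the pyramidal and granule cell markers (-0.78) lie left of those of the glial lists.

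The genes whose profile over the 12 arrays was most like that of each member were found among 10906 named genes well above background on every array, by the root mean square difference (RMS, in log2 units) between profiles centred on their own mean. For Vsnl1 they were Plppr4 (RMS 0.09), a phospholipid phosphatase-related protein of glutamatergic synapses, and Atp2b2 (0.11), a plasma membrane calcium pump. For Ncald they were Susd4 (0.14) and Magee1 (0.15) and for Hpca Cntnap4 and Ckmt1 (both 0.21), and among those for Hpcal4 was Clec2l (0.24). For Ncs1 they were Epha3 (0.21), an ephrin receptor, and Slc2a3 (0.22), the neuronal glucose transporter, which had log2 fold changes of 0.80 at 7 h and -0.60 at 24 h. Among the buffers they were Tmem218 and Cbx7 for Pvalb (0.16 each), Lypd1 (0.14) and Dpcd (0.15) for Calb1, and Nkain3 (0.13) and Efnb3 (0.15) for Calb2, and for Hpcal1 they were Thoc5 (0.07) and Fam20c (0.09). A gene that varies little is matched more closely on this measure, and the own SD over the arrays ran from 0.33 for Hpcal1 to 0.79 for Vsnl1.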

How the data were processed

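RNA of the 12 samples was Cy3-labelled by the authors and hybridized 1 sample per one-color Agilent array. The deposited intensity values were made by the authors with Feature Extraction 10.5.1.1, which subtracts background and corrects spatial trends without scaling between arrays; the design of the array refers to build rn4. The authors' deposited log2 values are the same intensities after a shift of each array by 1 constant. Control spots and spots marked as outliers were dropped, intensities were put on the log2 scale, averaged per probe and centred on the array's median probe.

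Probes were named by RefSeq accession (18004 of 30367). A gene was represented by its brightest probe, and other probes were checked. The comparisons used limma (version 3.58.1, R version 4.3.3), tested on simulated data, with 1 linear model of 4 groups (8 residual degrees of freedom), two-sided, with Benjamini-Hochberg adjustment over all probes. The members and lists were chosen with earlier results of these data known. From each list, genes at an unadjusted p under 0.05 were named, at most the 4 largest changes at each time, and the 2 nearest genes of each member; Pi4kb, Sst, Map2, Tubb3 and Ptprc were named after their values were seen. A nearest gene and a marker that the rule names are not reported here. The alternatives were other scalings, normexp on the median signal (offset 50), the authors' values, a filter on dim probes, other tests, the slide as a block, all probes of a gene, and single arrays left out; leaving out the 3 arrays scanned apart was chosen after seeing the data. The precision is limited by the number of arrays; 78.3% to 87.1% of spots were well above background.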

Additional observations from a re-analysis of the deposited data

Results flagged for a closer look

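The response of Ncs1 differed between the recovery times by a test of that difference: its 24 h change minus its 7 h change was -1.24 on the log2 scale (SE 0.38, 95% interval -2.07 to -0.40), past an unadjusted limma p under 0.05 but not past the adjustment over all probes. It did not pass without the 3 OGD arrays scanned apart (-0.71), after normexp background correction (-0.73) or when scaled to the spike-in probe (-1.46). After centring on the array median, Ncs1 was higher on 3 of 3 slides at 7 h and lower on 3 of 3 slides at 24 h. Its intensities at 7 h before centring were 126, 136 and 126 in the control and 125, 182 and 120 in the OGD cultures.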

How the results depend on the processing

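No gene of the group passed the adjustment over all probes, and 3 cultures in a group limit what can be told. The count of the 9 genes called was 4 at 7 h, 5 at 24 h and 1 for the difference between the times, and 58 calls fell in the related-gene and marker lists over both times. Scaling to the spike-in probe gave 0, 3, 0 and 12 and turned Ncs1 at 7 h to -0.043. Normexp gave 0 for the difference and turned Pvalb at 24 h to 0.071. The methods' t-test gave 0 at 24 h and 38 in the lists, and limma on each time alone gave 3 at 24 h. Without the 3 OGD arrays scanned apart, a choice made after seeing the data, the counts were 1, 1, 0 and 32, and Pvalb and Calb1 at 24 h were 0.14 and 0.054, the same values as without OGD 24 h replicate 1 alone. With each array left out in turn, the counts ran from 0 to 6 at 7 h, from 1 to 7 at 24 h, from 1 to 1 for the difference and from 32 to 65 in the lists, and between 15 and 17 of the fold changes of the 9 genes were below 0. Pvalb at 24 h ran from -0.41 to 0.14 and Calb1 from -0.78 to 0.054. The cause of these changes was not tested.

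Arrays of the same time and replicate number share a slide, but their deviations from the group means correlated at -0.05, 0.11 and -0.01 at 7 h and 0.08, 0.17 and -0.01 at 24 h, so the number was not taken to pair the samples. With the slide as a fixed replicate block, 3 of the 9 genes were called at 24 h. The authors' values, the 75th percentile, quantile normalization, the filter on dim probes, all probes of a gene and the slide as a random block moved none of these counts by more than a factor of 1.5. Hpcal1 nevertheless lost its calls at 7 h and 24 h with the authors' values, the 75th percentile and quantile normalization.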
